A study of Ovis aries with 6 samples.

Results

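Autophagy carries cell contents, whole mitochondria among them, to the lysosome. The genes of this pathway were examined in the fat depot that surrounds the kidney (perirenal adipose tissue) of 3 lambs and 3 fetuses of pure-bred wild-type Merino sheep. Members were taken by gene symbol from a list of 45 autophagy and mitophagy genes, of which 36 matched a gene name among the 24390 genes of the full table. All 36 passed the filter on low counts and stood among the 13624 genes tested. The symbols ATG9A, ATG101, BECN1, PIK3R4, UVRAG, WIPI1, MAP1LC3B, PARK2 and BNIP3L found no match and were not analysed here.

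The lambs were reared with their ewes, and the labels give their age as 89 days (with a range of ± 7 days), as 80 days after birth and as 12 weeks. The fetuses were 132 days post conception, and a full pregnancy is given as 150 days. The labels state that no treatment was given, although the sample titles of all 3 lambs carry the letters VEH, whose meaning the labels do not give. Each library came from a separate animal and from whole tissue. By its title, the study asks which transcripts go with the change of this depot from brown to white fat.

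In the textbook account, a kinase complex around ULK1 starts a cup-shaped membrane, a lipid kinase complex marks it, ATG2 and WIPI proteins feed it with lipid, and conjugation enzymes attach small ubiquitin-like proteins of the LC3 and GABARAP kind to it. Receptors such as p62 tie cargo to these proteins, and mitophagy receptors sit in the outer mitochondrial membrane and do the same for mitochondria. In mouse fat, removal of mitochondria by this route is known to accompany the loss of the brown-like state in beige adipocytes.

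The lamb libraries held 15907128 to 17263780 counts and the fetal libraries 17535892 to 19150428. Counts of the mitochondrial genome took 7.37 to 8.29% of the lamb libraries and 27.5 to 40.7% of the fetal libraries, so the way libraries are scaled bears on every difference below. Adipocyte markers were abundant, with a summed level of 27117 to 37664 read counts scaled to a common library size (CPM) in lambs and 13234 to 16560 CPM in fetuses. ADIPOQ and FABP4 held most of these sums, while PLIN1 averaged 1382 CPM in lambs and 1324 CPM in fetuses. The 5 endothelial markers overlapped between stages, at 1427 to 1540 CPM in lambs and 1404 to 1778 CPM in fetuses. So did the 4 T cell markers (4.75 to 19.9 and 3.46 to 7.05 CPM). The 2 adrenal markers summed to 31.5 to 44.9 CPM in lambs and 19.2 to 31.5 CPM in fetuses. The 4 skeletal muscle markers summed to 6.97 to 10.5 CPM in lambs and 18.8 to 110 CPM in fetuses, highest in fetus 1. Markers of some further cell types also differed. The 12 macrophage markers summed to 1301 to 1616 CPM in lambs and 183 to 408 CPM in fetuses, and without MRC1, which held most of the lamb sum, to 472 to 481 CPM in lambs and 141 to 339 CPM in fetuses. The 5 red cell markers summed to 50.0 to 79.3 CPM in lambs and 374 to 1294 CPM in fetuses, and the 8 urothelial markers to at most 0.692 CPM in lambs and to 53.7 to 187 CPM in fetuses. HBBB held most of the fetal red cell sum, while EPB42 averaged 21.5 CPM in lambs and 18.8 CPM in fetuses. The 6 kidney markers stayed at or under 1.14 CPM in lambs and 2.50 CPM in fetuses, and AQP2 of the collecting duct was at 0 counts. In whole tissue, more cells of a type and more RNA per cell cannot be told apart. The part of these cell types in the results below was not tested.

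A few autophagy genes differed clearly between the stages, and most differed little. The median log2 difference of the 36 genes, lamb minus fetus, was 0.06, against -0.01 over all genes tested, and 25 of the 36 lay within 0.5 of 0 on this scale. By edgeR's quasi-likelihood test with Benjamini-Hochberg adjustment over all genes, 9 members were higher in lambs, 6 were lower and 21 did not pass an adjusted p of 0.05. That is 25% higher and 16.7% lower, beside 22.0% and 22.7% of all genes. At least 2-fold, 3 members were higher and 0 lower, against 10.0% and 12.9% of all genes; ATG2B, at -0.996, was the nearest to a 2-fold decrease. Without adjustment 17 members had p below 0.05, and the share of all genes at that level was not worked out. DESeq2 called 8 members higher and 6 lower, beside 23.3% and 23.0% of all genes. With edgeR's exact test the counts were 8 and 5, beside 22.0% and 23.3% of all genes. With limma-voom they were 8 and 6, beside 21.4% and 23.0%. The libraries of the stages did not overlap for 19 members, 52.8%, beside 57.7% of all genes.

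**Figure D1:**
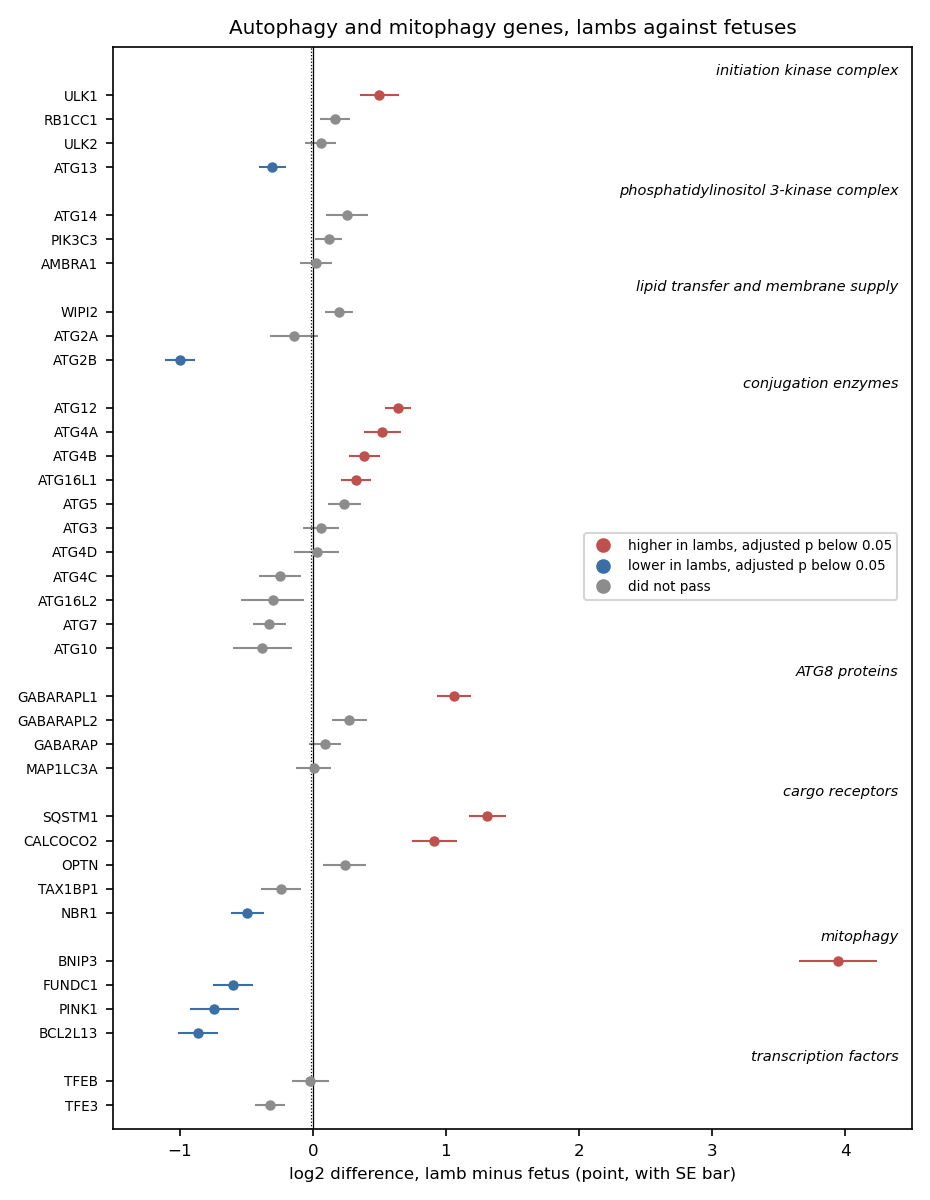
Log2 difference (lamb minus fetus, x axis) with its SE for each of the 36 autophagy and mitophagy genes, grouped by role (y axis). Red points are higher and blue points lower in lambs at an adjusted p below 0.05, grey points did not pass, and the dotted line is the median of all genes tested; BNIP3, at 3.95, stands far right of the other genes, which lie between -0.996 and 1.31.

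The change that stood out was in the mitophagy genes, and it ran in opposite directions within the group. BNIP3, an outer membrane protein that binds LC3 and GABARAP proteins directly (ENSOARG00000015367, chromosome 22, 49672420 to 49675769 on Oar v3.1), was at 760, 915 and 457 CPM in the lambs, against 41.4, 55.5 and 41.5 CPM in the fetuses. The stages were far apart, and lamb 3 was the lowest of the lambs. The means were 711 ± 233 CPM in lambs and 46.1 ± 8.07 CPM in fetuses (SD, n = 3 each), a 15.4-fold difference (log2 3.95 ± 0.29 SE, adjusted p = 0.000106 by edgeR). It ranked 74th among all 13624 log2 differences, counted from the largest increase. Leaving out any 1 library moved it between 3.73 and 4.18. By the authors' mean RPKM, a count per gene length and library size, BNIP3 stood 71st of all 24390 genes in lambs, at 1266 RPKM, and 1351st in fetuses, at 59.0 RPKM. The RPKM follow library totals, mitochondrial genome counts included, whereas CPM was further scaled between libraries. Stage differences in RPKM therefore differ in size from the tested ones, here and below.

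The other 3 members of this group, PINK1, FUNDC1 and BCL2L13, fell. PINK1, the kinase that marks damaged mitochondria for ubiquitin-dependent removal (ENSOARG00000009126, chromosome 2, 244875185 to 244891045), was at 41.3, 33.4 and 51.9 CPM in lambs, against 68.4, 81.3 and 61.9 CPM in fetuses. Its groups did not overlap (42.2 ± 9.27 and 70.5 ± 9.87 CPM, log2 -0.74 ± 0.18, adjusted p = 0.0135). The PINK1 region shares 2773 bases with that of DDOST, a subunit of the oligosaccharide transferase, and since strand handling is not given, reads from the overlap may have been counted to either. DDOST itself was at 241 ± 28.7 CPM in lambs and 217 ± 16.2 CPM in fetuses and did not pass (log2 0.16 ± 0.14, adjusted p = 0.377).

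FUNDC1, a receptor known from hypoxic mammalian cells (ENSOARG00000003636, chromosome X, 41598636 to 41609376), was at 17.6, 12.7 and 14.4 CPM in lambs, against 21.1, 23.8 and 23.0 CPM in fetuses. Every lamb lay below every fetus, and the log2 difference was -0.60 ± 0.15 (adjusted p = 0.0143). BCL2L13, the mammalian counterpart of the yeast mitophagy receptor Atg32 (ENSOARG00000013505, chromosome 3, 213082980 to 213121593), was at 52.6, 48.6 and 69.0 CPM in lambs, against 98.5, 108 and 103 CPM in fetuses. Again the groups were apart (log2 -0.86 ± 0.15, adjusted p = 0.00315). The PINK1, FUNDC1 and BCL2L13 calls were lost only with scaling by library totals among the 17 alternatives, where the log2 differences were -0.25, -0.12 and -0.39.

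Beside these 3 decreases, genes taken as marks of mitochondrial mass fell too. Of 10 such genes, 7 fell (70%, against 22.7% of all genes) and 3 did not pass, with a median log2 difference of -1.37 and a range of -3.16 to 0.08. Those that did not pass were TOMM20, TOMM22 and HSPD1, at -0.46, 0.08 and -0.06. Citrate synthase, CS, was at 101 ± 25.4 CPM in lambs and 848 ± 125 CPM in fetuses, and the complex III core genes UQCRC1 and UQCRC2 fell as well (log2 -3.16 ± 0.23 and -2.32 ± 0.23). The 6 brown adipocyte markers summed to at most 641 CPM in lambs and to 1451 to 2630 CPM in fetuses. UCP1 held most of these sums (476 ± 77.2 CPM in lambs and 1633 ± 530 CPM in fetuses). CIDEA and PPARGC1A did not pass (adjusted p = 0.311 and 0.0583 by edgeR). Whether the decreases in PINK1, FUNDC1 and BCL2L13 differ in size from those of the mitochondrial genes was not tested.

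**Figure D2:**
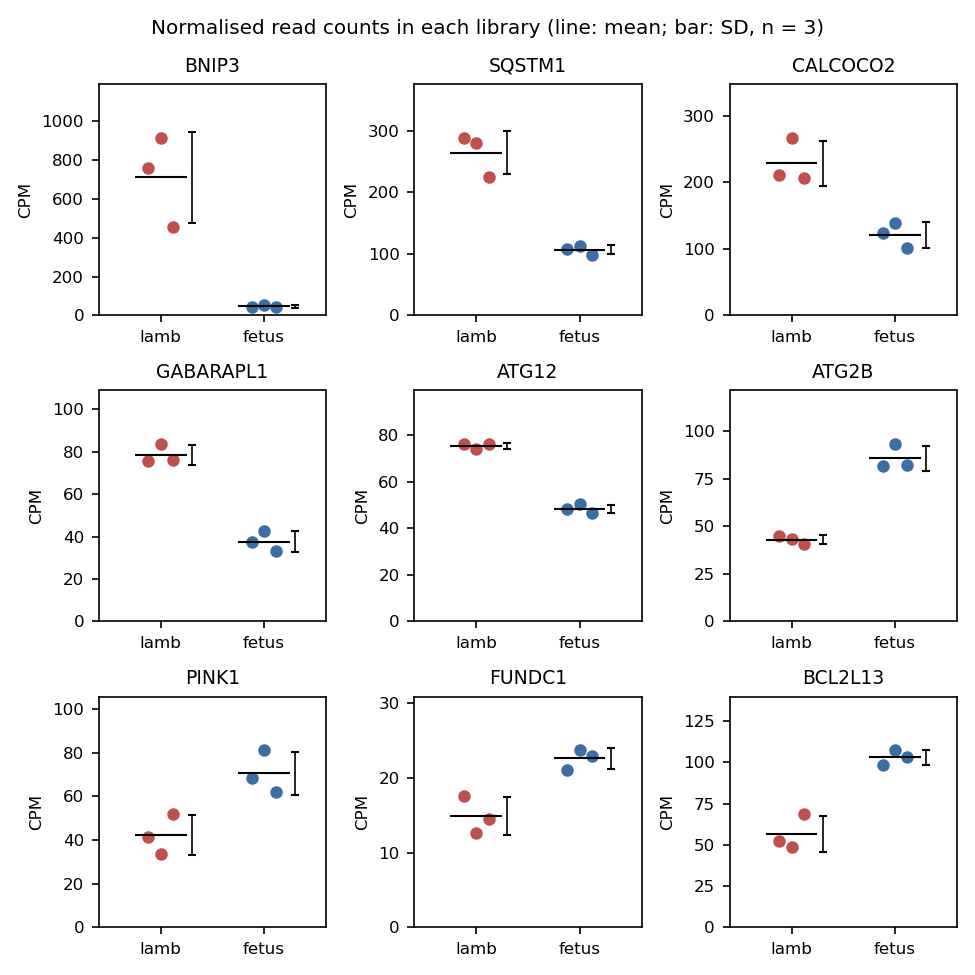
Normalised read count (CPM, y axis from 0) of 9 genes in each lamb (red) and fetal (blue) library, with the mean as a line and the SD as a bar (n = 3 per stage). BNIP3, SQSTM1, CALCOCO2, GABARAPL1 and ATG12 are higher in all 3 lambs than in any fetus; ATG2B, PINK1, FUNDC1 and BCL2L13 are lower.

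Set side by side per gene length, the mitophagy receptors among the members differed in makeup between the stages. From the authors' mean RPKM, BNIP3 made up 93.2% of the summed RPKM of BNIP3, FUNDC1 and BCL2L13 in lambs and 32.7% in fetuses, while BCL2L13 made up 4.35% in lambs and 47.7% in fetuses. FUNDC1 made up 2.43% in lambs and 19.6% in fetuses. These shares have no error, since the means are 1 value per stage. They leave out BNIP3L and genes outside the member list. Among the latter was FKBP8 of the further mitophagy list, at 115 ± 14.2 CPM in lambs and 105 ± 5.98 CPM in fetuses. BNIP3 also carried most of the difference in the summed level of all 36 genes. That sum was 3352, 3547 and 2910 CPM in lambs, against 2505, 2650 and 2375 CPM in fetuses. Without BNIP3, a choice made after its values were seen, it was 2592, 2632 and 2453 CPM in lambs, against 2463, 2594 and 2333 CPM in fetuses, and the stages overlapped.

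**Figure D3:**
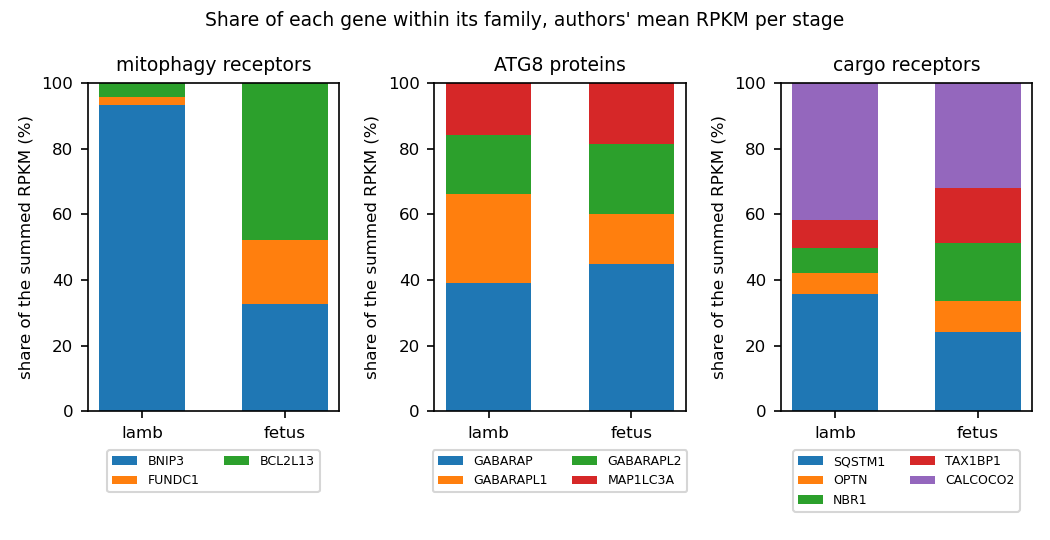
Share (%) of each gene in the summed authors' mean RPKM of the members shown for its family, in lambs (left bar) and fetuses (right bar). The families are 3 mitophagy receptors, 4 ATG8 proteins and 5 cargo receptors of the member list. BNIP3 takes 93.2% in lambs and 32.7% in fetuses; GABARAPL1 takes 27.0% and 15.2%.

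Among the cargo receptors, SQSTM1 and CALCOCO2 rose and NBR1 fell. SQSTM1 encodes p62, which binds ubiquitinated cargo and is itself degraded by autophagy (ENSOARG00000002683, chromosome 5, 1120310 to 1128622). It was at 289, 280 and 225 CPM in lambs, against 109, 113 and 98.6 CPM in fetuses. The lambs were all above the fetuses (264 ± 34.5 and 107 ± 7.18 CPM), by 2.48-fold (log2 1.31 ± 0.14, adjusted p = 0.000365). CALCOCO2, also called NDP52, a receptor for bacteria and for ubiquitin-marked mitochondria (chromosome 11, 37227823 to 37243185), was at 212, 267 and 207 CPM in lambs, against 123, 139 and 101 CPM in fetuses. The groups did not overlap, and the log2 difference was 0.91 ± 0.17 (adjusted p = 0.00378).

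NBR1, a relative of p62 in domain layout that also acts in removal of peroxisomes, was at 309, 295 and 273 CPM in lambs, against 400, 439 and 395 CPM in fetuses. It was lower in all lambs (log2 -0.49 ± 0.12, adjusted p = 0.0146), and with scaling by library totals it was at -0.01 and did not pass. OPTN, the receptor optineurin, and TAX1BP1, which works with NBR1, had log2 differences of 0.24 ± 0.16 (adjusted p = 0.263) and -0.24 ± 0.15 (adjusted p = 0.233). Per gene length, CALCOCO2 and SQSTM1 were the highest of the 5 in both stages, at 223 and 191 RPKM in lambs and 73.3 and 55.7 RPKM in fetuses, whereas OPTN, NBR1 and TAX1BP1 lay between 33.6 and 45.9 RPKM in lambs and between 21.5 and 40.3 RPKM in fetuses. Macrophages express p62 too, and 8 of 11 tested macrophage markers were higher in lambs (72.7%, against 22.0% of all genes). Among them was MRC1 at 993 ± 163 CPM, against 57.6 ± 14.1 CPM in fetuses. CSF1R, C1QB and C1QC did not pass; CSF1R was at 56.4 ± 4.81 CPM in lambs and 50.1 ± 21.1 CPM in fetuses. The part of this in the receptor values was not tested.

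ATG8 proteins coat the forming membrane and hold the receptors, and 4 of them were measured members. GABARAPL1 rose and the other members did not pass. MAP1LC3C, an LC3 gene outside the member list, was also called higher, at a low level, and is given with the further genes below. GABARAPL1 (ENSOARG00000021009, chromosome 3, 204403700 to 204411734) was at 75.5, 83.8 and 76.0 CPM in lambs, against 37.2, 42.7 and 33.0 CPM in fetuses. The lamb values lay close together and far above the fetal ones (78.4 ± 4.63 and 37.7 ± 4.88 CPM), a 2.08-fold difference (log2 1.06 ± 0.13, adjusted p = 0.000604). GABARAP was at 124 ± 2.56 CPM in lambs and 116 ± 12.8 CPM in fetuses (log2 0.09 ± 0.12, adjusted p = 0.557). GABARAPL2 and MAP1LC3A had log2 differences of 0.28 ± 0.13 and 0.01 ± 0.13, with adjusted p of 0.126 and 0.976. The authors' mean RPKM, scaled unlike CPM, serve here to rank the 4 genes within a stage. By them GABARAP was the highest of the 4 in both stages, at 323 in lambs and 211 in fetuses. GABARAPL1 was the second highest in lambs, at 223, and the lowest in fetuses, at 71.6.

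Of the 11 conjugation genes, 4 rose, by small amounts, and 7 did not pass (36.4% higher, against 22.0% of all genes, and 0 lower, against 22.7%). ATG12, the ubiquitin-like protein joined to ATG5 (chromosome 7, 4458675 to 4478599), was at 76.3, 74 and 76.3 CPM in lambs, against 48.2, 50.2 and 46.8 CPM in fetuses. Its spread within a stage was small and the groups were apart (log2 0.64 ± 0.10, adjusted p = 0.00162). The proteases ATG4A and ATG4B, which process LC3 and GABARAP proteins, had log2 differences of 0.52 ± 0.14 (adjusted p = 0.0177) and 0.39 ± 0.12 (adjusted p = 0.0286). ATG16L1, the scaffold that brings the ATG12 conjugate to the membrane, was at 0.33 ± 0.11 (adjusted p = 0.0472).

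ATG12 kept its call in all 17 alternatives, but the other 3 did not. ATG4A lost it without lamb 3 or fetus 2 or 3 (adjusted p up to 0.0580), ATG4B in 8 alternatives, among them the loss of any library but lamb 1 (up to 0.0893), and ATG16L1 in 13 (up to 0.155). The region of ATG4B shares 14583 bases with that of THAP4, which fell (log2 -0.47 ± 0.13, adjusted p = 0.0224), a call lost with library totals and without lamb 1, fetus 2 or fetus 3. The 7 genes that did not pass were ATG5, ATG3, ATG4D, ATG4C, ATG16L2, ATG7 and ATG10, between 0.24 and -0.38. The region of ATG4D shares 1388 bases with that of KRI1, which held 3944 counts over all libraries, against 759 for ATG4D. The part of KRI1 reads in the ATG4D value was not tested. ATG7, the enzyme that activates both conjugation routes, was the nearest to the threshold, at 34.6 ± 3.96 CPM in lambs and 43.4 ± 3.36 CPM in fetuses (log2 -0.33 ± 0.13, adjusted p = 0.0671), and it passed with upper quartile factors, with library totals without mitochondrial genome genes and with the filter at 5 CPM.

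In the initiation complex, ULK1 rose and ATG13 fell, both by small amounts. ULK1, the kinase that receives the signals of AMPK and mTOR (ENSOARG00000013499, chromosome 17, 44763719 to 44784955), was at 80.6, 73.9 and 57.3 CPM in lambs, against 46.2, 49.3 and 54.2 CPM in fetuses. Lamb 3 lay only just above the highest fetus, and the log2 difference was 0.50 ± 0.15 (adjusted p = 0.0283). The call was lost on leaving out lamb 1, lamb 2 or any 1 fetus and with upper quartile factors (adjusted p up to 0.0974). ATG13, the regulatory subunit, was at 43.2, 45.0 and 40.8 CPM in lambs, against 51.5, 53.7 and 54.0 CPM in fetuses. Its difference of -0.30 ± 0.10 (adjusted p = 0.0377) was lost in 9 alternatives, among them library totals, where it was 0.17. ULK2 and the scaffold RB1CC1 had log2 differences of 0.06 ± 0.12 and 0.17 ± 0.11 and did not pass (adjusted p = 0.708 and 0.262).

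The 3 measured genes of the lipid kinase complex, the catalytic subunit PIK3C3, the targeting subunit ATG14 and the regulator AMBRA1, had log2 differences of 0.12 ± 0.10, 0.26 ± 0.16 and 0.02 ± 0.12. By edgeR 0 of the 3 passed, also at an unadjusted p under 0.05, and the counts were 0 by DESeq2, the exact test and limma-voom. The lowest of their adjusted p by edgeR was 0.223 (ATG14), and with library totals PIK3C3 and ATG14 passed as higher. Their level was low to moderate, at 10.1 ± 1.05 CPM in lambs and 8.45 ± 0.795 CPM in fetuses for ATG14.

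Of the proteins that supply the growing membrane with lipid, the transfer protein ATG2B fell and its paralogue ATG2A did not pass. ATG2B (ENSOARG00000016088, chromosome 18, 59867122 to 59939787) was at 45.0, 43.5 and 40.5 CPM in lambs, against 81.6, 93.4 and 82.3 CPM in fetuses. The lambs were all far below the fetuses (43.0 ± 2.28 and 85.8 ± 6.59 CPM, log2 -0.996 ± 0.11, adjusted p = 0.000419), and it was lower in all 17 alternatives. ATG2A was at 67.7 ± 16.6 CPM in lambs and 74.6 ± 3.92 CPM in fetuses (log2 -0.14 ± 0.18, adjusted p = 0.551), and WIPI2, which recruits ATG16L1, had a log2 difference of 0.20 ± 0.10 (adjusted p = 0.157).

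Of the transcription factors known to switch on lysosomal and autophagy genes, the members TFEB and TFE3 did not pass. TFEB (ENSOARG00000002322, chromosome 20, 15590950 to 15597247) was at 12.5, 12.0 and 14.4 CPM in lambs, against 12.8, 12.3 and 14.4 CPM in fetuses. The values overlapped throughout (log2 -0.02 ± 0.14, adjusted p = 0.917). TFE3 was at 31.4 ± 2.18 CPM in lambs and 39.2 ± 3.06 CPM in fetuses, with all lambs lower, and narrowly missed the threshold (log2 -0.32 ± 0.11, adjusted p = 0.0513). It passed with upper quartile factors, with library totals without mitochondrial genome genes and with the filter at 5 CPM. Of the pair, 1 had an unadjusted p under 0.05, and 0 were called by edgeR, DESeq2, the exact test or limma-voom. Other factors, from the list of upstream regulators and chosen after their values were seen, did pass. MITF, of the same family as TFEB, was at 58.8 ± 12.2 CPM in lambs and 18.3 ± 2.90 CPM in fetuses (log2 1.68 ± 0.19, adjusted p = 0.000422), and FOXO3 at 291 ± 27.2 CPM in lambs and 77.7 ± 12.7 CPM in fetuses (log2 1.90 ± 0.16, adjusted p = 0.000144). Both were called higher in all 17 alternatives. TFEC, also of the TFEB family, was at 0.788 ± 0.0984 CPM in lambs and 1.43 ± 0.578 CPM in fetuses and did not pass (log2 -0.85 ± 0.38, adjusted p = 0.105). Transcript levels do not report where these factors are in the cell, on which their activity depends.

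Ratios of related genes within a library do not depend on how libraries are scaled. Of 10 pairs fixed for this, 6 had both genes measured. The count ratio of GABARAPL1 to GABARAP was 0.605, 0.664 and 0.627 in lambs, against 0.352, 0.327 and 0.294 in fetuses, so that it was 1.95 times as high in lambs. That of ATG2A to ATG2B was 1.43, 1.97 and 1.31 in lambs, against 0.889, 0.847 and 0.876 in fetuses, or 1.78 times as high. GABARAPL1 to GABARAPL2 differed by 0.78, ULK1 to ULK2 by 0.44 and TFEB to TFE3 by 0.30 on the log2 scale, each with all lambs above all fetuses, in the case of TFEB to TFE3 only just (lamb 2 and fetus 3 were both at 0.368). An exact permutation test, two-sided, returned p = 0.1 for these 5 pairs, the smallest that 3 against 3 allows (0.12 adjusted over the 6 pairs). ATG16L2 to ATG16L1 overlapped between stages (log2 difference -0.59, exact p = 0.3).

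**Figure D4:**
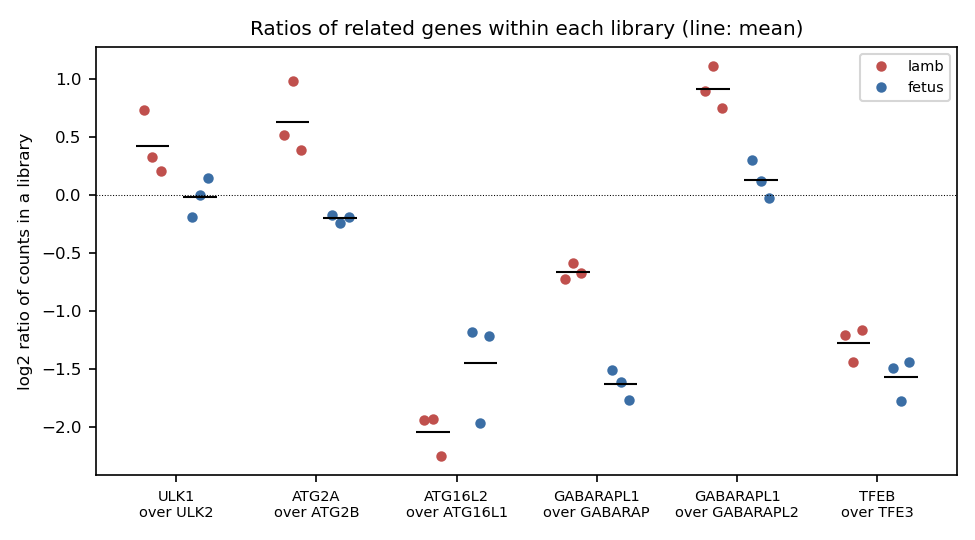
Log2 ratio of the counts of 2 related genes in the same library (y axis) for 6 pairs, with lambs in red and fetuses in blue and the mean as a line. The GABARAPL1 to GABARAP ratio averages -0.66 in lambs and -1.63 in fetuses; ATG16L2 to ATG16L1 overlaps between the stages.

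Further genes of the pathway were taken from 4 lists, together 130 genes, chosen by function, of which 112 were tested. Of these, 38 rose, 25 fell and 49 did not pass, and the median log2 difference was 0.09. That is 33.9% higher and 22.3% lower, beside 22.0% and 22.7% of all genes. Among 29 further autophagy genes 13 rose (44.8%, against 22.0% of all genes) and 5 fell (17.2%, against 22.7%). TP53INP1, a p53-induced protein that binds LC3, was at 348 ± 90.6 CPM in lambs and 34.4 ± 5.91 CPM in fetuses (log2 3.34 ± 0.23), and BCL2L1, which encodes the Beclin-binding BCL-XL, rose by 1.94 ± 0.22. MAP1LC3C rose too but stood at only 1.40 ± 0.66 CPM in lambs and 0.253 ± 0.211 CPM in fetuses, and its call was lost without lamb 1, lamb 2, fetus 2 or fetus 3. KIAA0226, the older name of RUBCN, which encodes the autophagy inhibitor Rubicon, fell to 9.12 ± 1.53 CPM in lambs, against 68.7 ± 11.3 CPM in fetuses (log2 -2.91 ± 0.18). ATG9B and the fusion protein gene SNAP29 fell too, to 32.7 ± 9.79 and 13.4 ± 1.42 CPM in lambs, against 77.8 ± 15.8 and 26.2 ± 3.17 CPM in fetuses.

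Of 28 further mitophagy genes, 6 rose (21.4%, near the 22.0% of all genes) and 11 fell (39.3%, against 22.7%). VDAC1, which fell, is counted both here and among the marks of mitochondrial mass, and RHEB both here and among the upstream regulators below. HIF1A, the oxygen-regulated factor known to activate BNIP3 in hypoxic mammalian cells, was at 582 ± 102 CPM in lambs and 88.4 ± 11.3 CPM in fetuses (log2 2.72 ± 0.18). NIPSNAP1, a matrix protein that marks damaged mitochondria, and the GTPase gene RHEB rose by 1.68 ± 0.32 and 1.04 ± 0.13. PPTC7, a mitochondrial phosphatase that limits the BNIP3 and BNIP3L proteins in human and mouse cells, was at 6.34 ± 1.63 CPM in lambs and 43.6 ± 5.99 CPM in fetuses (log2 -2.78 ± 0.21). GBAS, the older name of NIPSNAP2, and the inner membrane receptor gene PHB2 fell (log2 -1.36 ± 0.13 and -1.33 ± 0.15).

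Among 17 genes of other selective routes, 6 rose (35.3%, against 22.0% of all genes) and 2 fell (11.8%, against 22.7%). BAG3, which steers misfolded proteins to autophagy, rose by 1.94 ± 0.17, while its partner HSPB8 fell (log2 -2.17 ± 0.31). The endoplasmic reticulum receptor genes CCPG1 and TEX264 went opposite ways, at 1.19 ± 0.12 and -0.57 ± 0.16, and the ribosome receptor gene NUFIP1 rose by 1.04 ± 0.14. Of 39 upstream regulators, 14 rose (35.9%, against 22.0% of all genes) and 7 fell (17.9%, against 22.7%). DDIT4 and SESN1, stress-induced inhibitors of mTOR signalling, rose by 2.99 ± 0.20 and 1.98 ± 0.21. FOXO1, a factor known in mouse muscle to activate autophagy genes, was at 78.1 ± 2.71 CPM in lambs and 17.6 ± 2.87 CPM in fetuses (log2 2.15 ± 0.14). The AMPK subunit genes PRKAG2 and PRKAA2 fell (log2 -1.75 ± 0.14 and -1.70 ± 0.18), as did LAMTOR2 of the lysosomal Ragulator complex (log2 -0.81 ± 0.22). The AMPK subunits did not go one way: PRKAB1 and PRKAA1 rose by 0.52 ± 0.11 and 0.37 ± 0.11 (adjusted p = 0.00688 and 0.0255), PRKAA1 losing its call without fetus 1 or fetus 3. Over these 4 lists the highest adjusted p of a gene named by size of change was 0.0221, that of MAP1LC3C. The TEX264 and LAMTOR2 calls were lost with library totals and without fetus 2, that of TEX264 also without fetus 3 and that of LAMTOR2 also without lamb 1.

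**Figure D5:**
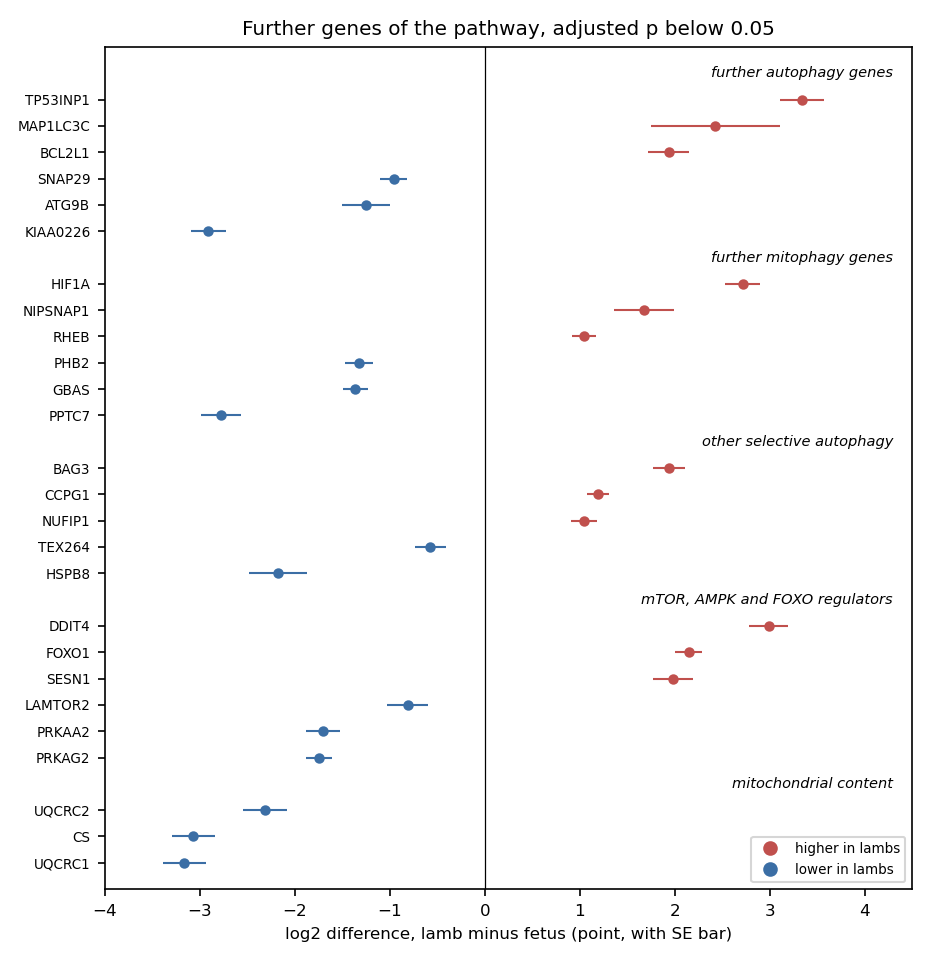
Log2 difference (lamb minus fetus, x axis) with its SE for the called genes of 5 further lists (y axis) with the largest changes in each direction, up to 3 a direction. Red points are higher and blue points lower in lambs; TP53INP1, DDIT4 and HIF1A reach 3.34, 2.99 and 2.72, and KIAA0226 and PPTC7 lie at -2.91 and -2.78.

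The count of members in each direction differed with the scaling of libraries. With library totals alone the median log2 difference of all genes moved up by 0.47, that of the members to 0.54, and the distance between them was 0.08, against 0.07 with TMM factors. Under that scaling 19 members were called higher and 1 lower, beside 41.1% and 10.7% of all genes, and ULK2, RB1CC1, PIK3C3, ATG14, WIPI2, ATG3, ATG5, GABARAP, GABARAPL2 and OPTN were among the 19. With totals that leave out mitochondrial genome genes the counts were 7 and 8, beside 21.04% and 22.97% of all genes. With upper quartile factors they were 6 and 8, beside 19.99% and 25.02% of all genes. BNIP3, SQSTM1, CALCOCO2, GABARAPL1 and ATG12 were called higher and ATG2B lower in all 17 alternatives.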

How the data were processed

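Per the labels, RNA of flash-frozen tissue was sequenced as single-end 50-base reads, with all 6 libraries on 1 flowcell. Per the series' design text, mapping used the Ensembl release 74 models of Oar v3.1 in CLC Genomics Workbench 7.0, and the authors tested with edgeR. Strand and multiple placements: not given in the sources used here. The deposited columns used were read counts per library and the authors' mean RPKM per stage. For ATG10 the RPKM and count columns differ in the reads behind them, and its RPKM was not used. The gene length implied by counts and RPKM had a lamb to fetus ratio of 0.477 for ATG10. Among the genes whose RPKM are given, this ratio was furthest from 1 for CALCOCO2 (0.874), GABARAPL2 (1.13) and BCL2L13 (1.11). Their shares carry that difference.

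The tests ran on the deposited counts in edgeR 4.0.16 under R 4.3.3 (filterByExpr, TMM, quasi-likelihood F test, no covariates, adjusted p below 0.05). limma 3.58.1 and DESeq2 1.42.0 served alternatives. SE is the log2 difference over the root of F. The fit was tested on simulated data. A count of 0 allows up to 0.157 to 0.189 CPM before TMM scaling, counting error only. Members and lists were chosen with earlier results of these data known. Every member is named. The rule gave library values for ULK1, SQSTM1, PINK1, BNIP3, FUNDC1, TFEB and called members with a log2 difference of at least 1 in size. Those of ATG2B, ATG12, ATG13, BCL2L13, CALCOCO2 and NBR1 were added after their values were seen. So were the further genes MRC1, CSF1R, DDOST, THAP4, FKBP8, MITF, TFEC, FOXO3, PRKAA1 and PRKAB1. From each other list up to 3 called genes a direction, at 1 CPM or more, were named by size of change.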

Additional observations from a re-analysis of the deposited data

How the results depend on the processing

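Calls of single genes that 17 alternatives ended or added are given with each gene above, and the counts not named here stayed within 1.5 times. With library totals, 5598 genes were higher and 1459 lower (79.3% of calls higher, against 49.3%), members were 19 and 1 with a median of 0.54, and further pathway genes 64 and 14. ATG13, ATG2A, ATG4C, ATG7, ATG10, ATG16L2, TAX1BP1, TFEB and TFE3 then changed sign, to 0.17, 0.35, 0.22, 0.15, 0.12, 0.15, 0.24, 0.44 and 0.16, without passing, and THAP4 was at 0.011; DDOST then passed as higher. AMBRA1, ATG4D and MAP1LC3A were at -0.035, -0.029 and -0.050 with upper quartile factors and at -0.015, -0.0085 and -0.030 with a filter of 5 CPM in 3 libraries, which MAP1LC3C did not pass. Without 1 library, members called higher ran from 5 (without fetus 2 or fetus 3, beside 16.4% and 16.9% of all genes) to 8 (without lamb 1, beside 20.2%). ATG5 passed as higher without lamb 2. On leaving out 1 library, 7 uncalled genes changed sign: ULK2 between -0.032 and 0.11, ATG3 between -0.034 and 0.17, AMBRA1 between -0.033 and 0.11, ATG2A between -0.34 and 0.010, ATG4D between -0.056 and 0.12, MAP1LC3A between -0.10 and 0.068 and TFEB between -0.10 and 0.048. A fit with replicate block gave members as 6 higher and 5 lower, against 9 and 6, ULK1, ATG4B, ATG16L1 and ATG13 being lost. In that fit 19.1% of all genes were higher and 20.2% lower. Same-numbered animals share only a number, and their deviations correlated at 0.0033, -0.12 and 0.046 across genes. The cause of these shifts was not tested. With TMM factors and all 3 animals a stage, no member with a difference under 0.3 passed.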
